A study of Rattus norvegicus with 4 samples.

Results

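The cells described here are fibroblasts of rat subcutaneous fascia, the sheet of loose connective tissue beneath the skin, that carried few transcripts of Pi16, which encodes a secreted protease inhibitor. They were chosen from raw counts of unique molecular identifiers (UMIs, each marking 1 captured transcript). A kept barcode showed 500 genes or more and no more than 20% of its UMIs from mitochondrial genes. A member also had to hold fewer than 10 UMIs of Pi16, at least 20 UMIs of Col1a1, Col1a2 and Col3a1 together, and at least 1 UMI of Pdgfra. It also had to hold at least 5 UMIs of Sfrp2, Gpx3, Myoc and Spon2 together, and none of Pecam1 or Ptprc. These conditions chose 664 of 13820 kept fascia cells, 450 in fascia library 1 and 214 in fascia library 2, and the whole series held 37722 kept cells. They are called Pi16-low fibroblasts below. The levels of the genes that made the choice are therefore given as a description, and so is every contrast with the remaining fascia fibroblasts.

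The series held 2 libraries of fascia and 2 of skin from wild-type rats, the fascia taken at the abdominal midline, and the labels name neither age, sex nor strain. Both tissues were digested with collagenase and elastase and depleted of red and dead cells, and transcripts were captured at their 3′ ends in droplets. Nothing in the labels says whether the 2 libraries of a tissue came from separate animals, so p-values measure only the spread between these libraries, which may be technical. The study compared the cell make-up of the tissues. The fascia libraries held 95777810 and 83852172 UMIs and the skin libraries 88334062 and 85165728. Median depth per kept cell was 12908 and 10452 UMIs in fascia 1 and 2, against 9039.5 and 2352.5 UMIs in skin 1 and 2. Between 16 and 35 kept barcodes were shared by any pair of libraries, none of them among cells of the gate. Doublet calling with Scrublet marked 9 and 3 members in fascia 1 and 2. It did not work in the skin libraries, where it marked 0 and 3 cells in all.

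Fibroblasts build and maintain the connective tissue matrix, and rodent studies divide them into universal types, found in most organs, and specialised ones. Pi16 and Dpp4 mark the universal type that lies around vessels and in fascia and is regarded as a reservoir, whereas Col15a1 marks the universal type within the tissue parenchyma. Of the marker genes given for the Pi16-low cells, Sfrp2 encodes a secreted antagonist of Wnt signalling. Gpx3 encodes the extracellular glutathione peroxidase, a selenoprotein that removes peroxides. Myoc encodes myocilin, a secreted glycoprotein best known from the eye, and Spon2 and Svep1 encode secreted matrix proteins. Stmn2 encodes stathmin 2, a regulator of microtubules best known from neurons.

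The promoters of the 2 marker genes that contributed most UMIs to the choice are shown because they differ in their core elements. Both are RefSeq sequences of build GRCr8, from 250 bases before to 50 bases after the annotated start, written 5′ to 3′ on the plus strand. That build differs from the build of the counts. Capitals mark TATAAA at position -26 of the Myoc promoter (chr13:77509713-77510012) and GGGCGG at position -11 of the Gpx3 promoter (chr10:39529085-39529384).
Myoc: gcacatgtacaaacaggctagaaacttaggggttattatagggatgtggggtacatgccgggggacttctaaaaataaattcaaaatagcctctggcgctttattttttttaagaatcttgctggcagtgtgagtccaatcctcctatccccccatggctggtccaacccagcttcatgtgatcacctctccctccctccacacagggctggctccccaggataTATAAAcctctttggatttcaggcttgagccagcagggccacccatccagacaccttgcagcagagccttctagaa
Gpx3: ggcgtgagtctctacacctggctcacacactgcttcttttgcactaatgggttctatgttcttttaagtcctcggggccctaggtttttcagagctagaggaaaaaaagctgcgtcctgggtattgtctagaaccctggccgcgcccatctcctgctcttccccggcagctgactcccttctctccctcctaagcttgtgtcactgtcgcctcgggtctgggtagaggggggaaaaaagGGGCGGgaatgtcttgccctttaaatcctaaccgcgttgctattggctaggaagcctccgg
Of the 6 marker genes, 5 had a promoter entry. On either strand, TATAAA was found in 2 of them, Myoc and Svep1, and in 14.2% of 33469 promoters. GGGCGG was likewise found in 2, Gpx3 and Spon2, and in 33.1% of all promoters. These matches describe letters and are not evidence of binding.

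Pi16-low cells made up 6.61% of kept cells in fascia 1 (exact 95% interval 6.03 to 7.22, counting error only) and 3.05% in fascia 2 (2.66 to 3.48). The same gate in skin held 208 cells or 2.79% in skin 1 (2.43 to 3.19) and 210 cells or 1.28% in skin 2 (1.11 to 1.46). Both fascia shares lay above both skin shares, by 2.80 percentage points on average, but with 2 libraries against 2 the exact two-sided permutation test cannot go below p = 0.33, the value it gave. The thresholds are of raw UMIs, and kept cells of skin 2 were the shallowest, at a median of 2352.5 UMIs. The order of the shares did not hold under every setting. With at least 5000 UMIs per cell the shares were 7.08% and 3.41% in fascia, against 3.34% and 3.62% in skin, a difference of 1.77 points (exact permutation p = 0.67). With 0 Pi16 UMIs required they were 3.10% and 1.34% in fascia, against 2.68% and 0.827% in skin, a difference of 0.465 points (exact permutation p = 0.67). The order was the opposite among fibroblasts, defined by the same conditions without those on Pi16 and on the 4 marker genes. There the Pi16-low cells were 18.8% and 34.6% of the fascia fibroblasts, against 68.6% and 47.5% of the skin fibroblasts, a difference of -31.4 points (exact permutation p = 0.33). When every cell was first thinned to 3000 UMIs this second difference became 0.589 points (exact permutation p = 1). Thinning also left out cells under 3000 UMIs and applied the same thresholds to fewer UMIs per cell, with 129 and 145 skin cells left in the fibroblast gate, against 303 and 442 unthinned.

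Fibroblasts with every level of Pi16 were present in both fascia libraries. Among fascia 1 fibroblasts, 229 had 0 Pi16 UMIs, 156 had 1 to 2, 109 had 3 to 9, 204 had 10 to 29 and 1697 had 30 or more. Fascia 2 had 105, 58, 76, 151 and 229 cells in the same bins, so a larger share of its fibroblasts lay at or near the threshold. In fascia, 19 cells just inside the threshold, with 9 Pi16 UMIs, had a median sum of 35 UMIs over the 4 marker genes, and 9 cells just outside it, with 10, had a median sum of 13. At the threshold on the marker genes, 9 cells held 5 UMIs and 8 cells held 4.

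The remaining Pi16 signal of the Pi16-low cells was set beside that of leukocytes, which should lack it. Summed over cells, Pi16 stood at 109 and 130 counts per 1000000 UMIs (CPM) in the Pi16-low cells of fascia 1 and 2. It stood at 188 and 97 CPM in the leukocyte gate of the same libraries (at least 2 UMIs of Ptprc, none of Pdgfra or Pecam1), and at 4872 and 2409 CPM in the Pi16-high fibroblasts. After thinning to 3000 UMIs, 23.5% and 28.8% of Pi16-low cells held a Pi16 UMI (53.1% and 56.1% unthinned), against 36.6% and 21.5% of leukocytes (68.9% and 41.7% unthinned). The Pi16-low value was thus below the leukocyte value in fascia 1 and above it in fascia 2. Median depths were 12837.5 and 15987.5 UMIs in Pi16-low cells and 11441 and 9999 UMIs in leukocytes.

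The 4 genes of the choice were not equally spread over the members. Gpx3 supplied 52.8% and 68.1% of their summed UMIs in fascia 1 and 2, Myoc 28.7% and 18.3%, Sfrp2 12.7% and 3.56%, and Spon2 5.86% and 10.0%. All 4 genes were detected together in 44.4% of the members of fascia 1 and 12.1% of those of fascia 2. Only 1 of the 4 genes was detected in 2.67% and 17.8% of them. The lower quartile of Gpx3 was 21 and 12 UMIs per member in fascia 1 and 2, above the threshold on the sum. Gpx3 alone thus met the condition in most members of both libraries. Fascia 1 members had more of the 4 genes detected than fascia 2 members did.

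Sfrp2 was the marker on which the fascia libraries differed most. It stood at 958 CPM in Pi16-low cells of fascia 1 and 111 CPM in those of fascia 2, against 126 and 2.27 CPM in Pi16-high cells. Thinned to 3000 UMIs, 65.1% and 16.3% of Pi16-low cells held an Sfrp2 UMI, against 0.87% and 0.107% of leukocytes. Stmn2, which took no part in the choice, stood at 1994 and 812 CPM in Pi16-low cells and at 37.9 and 2.42 CPM in Pi16-high cells. Its thinned share was 87.7% and 51.0% of Pi16-low cells, against 2.95% and 0.529% of Pi16-high cells and 0.783% and 0.535% of leukocytes. Svep1, also outside the choice, stood at 705 and 417 CPM in Pi16-low cells and 109 and 124 CPM in Pi16-high cells.

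Gpx3 was the least restricted of the markers. It stood at 3985 and 2116 CPM in Pi16-low cells and at 706 and 855 CPM in Pi16-high cells. Among endothelial cells of the same libraries, 42.7% and 38.9% held a Gpx3 UMI after thinning (65.8% and 63.7% unthinned), against 2.78% and 1.12% of leukocytes. A sum of 5 or more over the 4 marker genes was reached by 32.6% and 27.5% of the endothelial gate and by 85.7% and 93.7% of Pi16-high cells, so that condition alone does not separate the members. Myoc stood at 2166 and 569 CPM in Pi16-low cells and at 157 and 47.2 CPM in Pi16-high cells, and Spon2 at 442 and 312 CPM in Pi16-low cells and 28.8 and 28.3 CPM in Pi16-high cells.

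**Figure D1:**
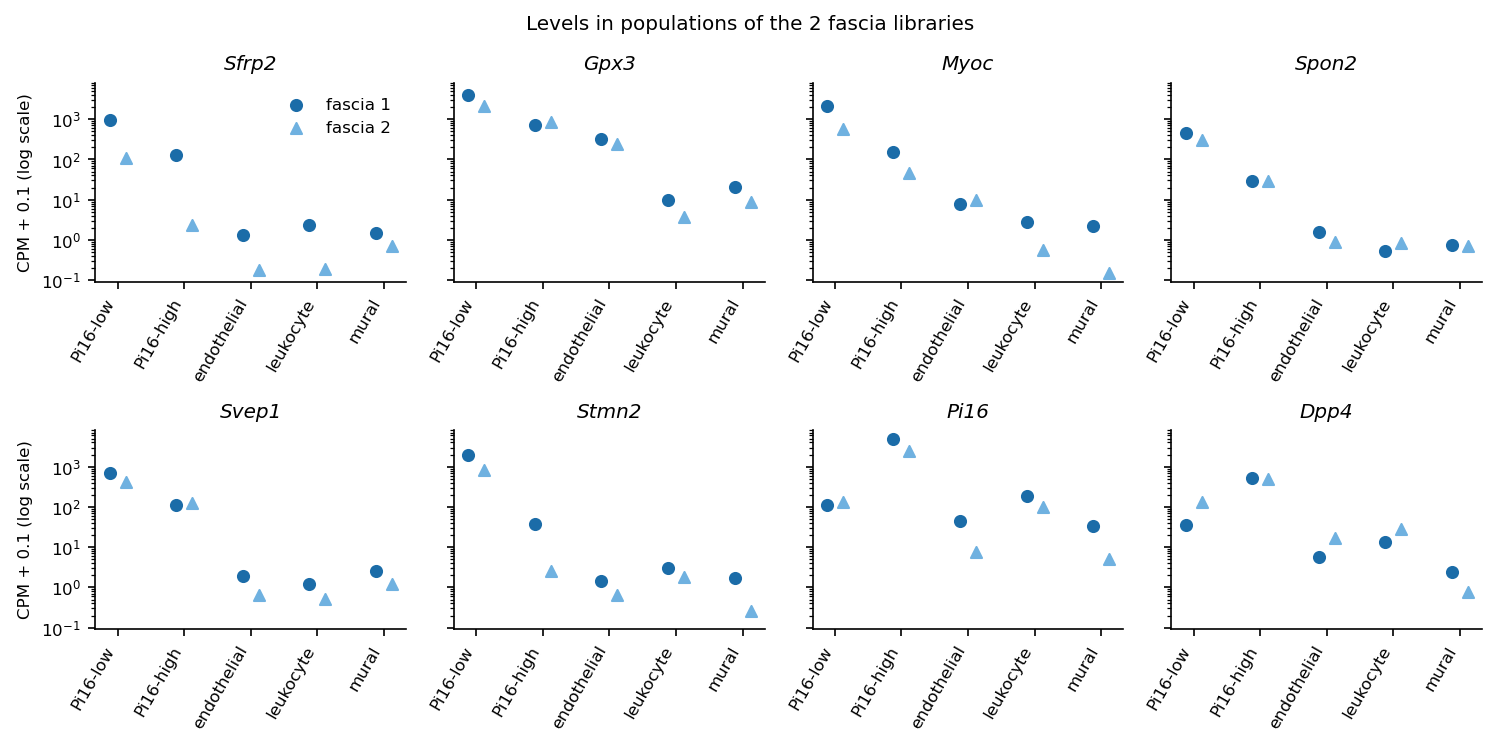
Levels of the 6 marker genes, Pi16 and Dpp4 in Pi16-low and Pi16-high fibroblasts and in the endothelial, leukocyte and mural gates of the fascia libraries, as CPM plus 0.1 on a log axis, 1 point per library. Each of the 6 markers was highest in the Pi16-low cells of its library, while Pi16 in them, at 109 and 130 CPM, lay in the range of the leukocyte gate.

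The cell type named by the label was checked against marker lists. Of 10 fibroblast markers, 4 belonged to the gate and check nothing. The other 6 were all detected, among them Dcn at 14418 and 14854 CPM in the members of fascia 1 and 2, against 115 and 22.6 CPM in the leukocyte gate, which required the absence of Pdgfra. Lumican (Lum), another proteoglycan of collagen fibrils, stood at 638 and 562 CPM in the members, against 1.51 and 0.186 CPM in the leukocyte gate. Macrophage markers summed to 68.2 and 55.6 CPM in the members and to 21410 and 12493 CPM in the leukocyte gate. Mural markers, all 10 with UMIs, summed to 402 and 548 CPM in the members, against 10591 and 10878 CPM in the mural gate and 208 and 315 CPM in leukocytes. Lymphocyte and mast cell markers summed to at most 1.64 CPM. Of 11 neuronal markers, 8 had UMIs in the members of fascia 1 and 7 in those of fascia 2. They summed to 47.1 and 100 CPM in the members, against 4.31 and 5.39 CPM in the leukocyte gate. In fascia fibroblasts with at least 10 Pi16 UMIs they summed to 339 and 209 CPM. In bulk sums such as these, fewer cells with a transcript and less transcript per cell cannot be told apart.

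Pi16-low cells were next set beside the 2281 Pi16-high fibroblasts of fascia, 1901 in fascia 1 and 380 in fascia 2, which met the same conditions with at least 10 Pi16 UMIs and none on the 4 marker genes. The values are log2 ratios of CPM within a library, with no test, since the choice used this contrast. Leaving out the genes of the gate, 370 of 3720 genes with a mean of at least 50 CPM in the higher population (9.95%) differed at least 2-fold in the same direction in both libraries. Of these, 225 were higher (6.05%) and 145 lower (3.9%) in Pi16-low cells, and the median over all 3720 genes was -0.07. The number was 721 when only fascia 1 was used and 377 when only fascia 2 was used.

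The genes with the largest ratios of Pi16-low to Pi16-high cells included several for secreted proteins. Igfbp3, an insulin-like growth factor binding protein, stood at 1157 and 619 CPM in Pi16-low cells and 11.8 and 3.48 CPM in Pi16-high cells. Cxcl14, a chemokine, stood at 1268 and 574 CPM in Pi16-low cells, against 15 and 1.97 CPM in Pi16-high cells. Crabp1, which binds retinoic acid in the cytosol, stood at 809 and 476 CPM in Pi16-low cells, against 8.64 and 2.12 CPM in Pi16-high cells. All 3 were higher in the Pi16-low cells of both libraries, with log2 ratios between 6.40 and 8.19. Spon1, which encodes F-spondin, a secreted guidance protein, stood at 351 and 110 CPM in Pi16-low cells and 2.45 and 1.51 CPM in Pi16-high cells. Cck, which encodes the peptide hormone cholecystokinin, stood at 178 and 56.2 CPM in Pi16-low cells, against 2.24 and 0 CPM in Pi16-high cells. Set against a floor of 3 counts, its log2 ratio in fascia 2 was at least 6.95.

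Further genes among the 12 chosen by the smaller of the 2 ratios had log2 ratios of at least 5.94 in each library. They included Ccbe1, a secreted factor of lymphatic growth, Cyp1b1, a cytochrome P450, Obp3, an odorant binding protein of rat, Chi3l1, a secreted chitinase-like protein, and Col15a1. Col15a1 stood at 234 and 177 CPM in Pi16-low cells and at 3.71 and 2.88 CPM in Pi16-high cells. That gene is the defining transcript of the parenchymal universal fibroblast in mouse.

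The genes lowest in Pi16-low relative to Pi16-high cells differed less in fascia 2 than in fascia 1. Mrgprg, an orphan receptor of the Mas-related family, stood at 1.80 and 22.9 CPM in Pi16-low cells and 516 and 122 CPM in Pi16-high cells. Gap43, a growth-associated protein of axons, stood at 7.69 and 16.2 CPM in Pi16-low cells, against 195 and 101 CPM in Pi16-high cells. Ptgs1, cyclooxygenase 1, stood at 6.38 and 11.9 CPM in Pi16-low cells, against 175 and 59.8 CPM in Pi16-high cells. The log2 ratios of these 3 genes lay between -8.16 and -4.67 in fascia 1 and between -2.64 and -2.33 in fascia 2. Pcsk6, a proprotein convertase, stood at 16.0 and 74.1 CPM in Pi16-low cells, against 518 and 374 CPM in Pi16-high cells. Its fascia 2 level was 303 CPM in a group of 42 members, sub-cluster 5 below, and at most 75.2 CPM in the other sub-clusters. The part of that group in the fascia 2 levels was not tested. Dact2, an intracellular regulator of Wnt and TGF-beta signalling, stood at 17.7 and 62.2 CPM in Pi16-low cells, against 495 and 291 CPM in Pi16-high cells. Atp8b4, Atp8a1, Synpr, Ildr2, Phactr1, Slc7a7 and the unannotated AABR07054614.1 completed the 12, each with ratios of -2.18 or lower in both libraries.

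Lists of fibroblast genes from mouse work divided along the same line. Over all genes compared, 6.05% were higher and 3.9% lower in Pi16-low cells. Of 17 parenchymal fibroblast genes with enough counts, 13 were at least 2-fold higher in Pi16-low cells in both libraries and none was lower, with a list median of 2.42. Gdf10, a secreted TGF-beta family member, stood at 288 and 87.4 CPM in Pi16-low cells, against 5.80 and 0.606 CPM in Pi16-high cells. Fmo2, a flavin monooxygenase, stood at 206 and 86.0 CPM in Pi16-low cells, against 4.72 and 0.303 CPM in Pi16-high cells. Gas6, a secreted ligand of TAM receptors, stood at 1199 and 726 CPM in Pi16-low cells, against 146 and 151 CPM in Pi16-high cells. Of 17 adventitial fibroblast genes, none was higher and 10 were lower, with a median of -1.55. Dpp4 stood at 35.0 and 133 CPM in Pi16-low cells, against 537 and 509 CPM in Pi16-high cells. Cd55, a complement regulator on the cell surface, stood at 53.8 and 280 CPM in Pi16-low cells, against 556 and 808 CPM in Pi16-high cells. Cd34, the surface glycoprotein in the study's title, stood at 33.2 and 56.7 CPM in Pi16-low cells, against 116 and 120 CPM in Pi16-high cells. Thinned shares with a Cd34 UMI were 7.83% and 13.5% of Pi16-low cells and 28.7% and 27.5% of Pi16-high cells, with 0.696% and 0.161% in leukocytes. The lists were chosen with results of these libraries known and are not independent evidence of a direction.

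Growth factor and signalling genes were among those that differed. The shares over all genes compared were 6.05% higher and 3.9% lower. Of 8 insulin-like growth factor genes, 4 were higher and 1 lower in Pi16-low cells. Igf1, the growth factor itself, stood at 517 and 381 CPM in Pi16-low cells, against 24.3 and 23.8 CPM in Pi16-high cells. Igfbp7 stood at 5692 and 3228 CPM in Pi16-low cells, against 218 and 181 CPM in Pi16-high cells. Igfbp5 went the other way, at 3182 and 3775 CPM in Pi16-low cells, against 15701 and 8617 CPM in Pi16-high cells. Of 5 Wnt antagonist and feedback genes, 1 was higher and 2, Dact2 and Apcdd1, were lower, with a list median of -0.14. Sfrp1, a second secreted Wnt antagonist, stood at 940 and 698 CPM in Pi16-low cells, against 27.7 and 18.8 CPM in Pi16-high cells. Wnt2, a Wnt ligand, stood at 4.75 and 18.2 CPM in Pi16-low cells, against 97.6 and 76.0 CPM in Pi16-high cells. Among 12 regulators of BMP and TGF-beta signalling, 3 were higher, including Gdf10. Another 2 were lower, the ligands Bmp6 and Bmp7, the second at 4.91 and 33.9 CPM in Pi16-low cells, against 226 and 136 CPM in Pi16-high cells.

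Chemokine, complement and matrix genes also divided the populations. Their counts stand beside shares of 6.05% higher and 3.9% lower over all genes compared. Of 11 chemokine and cytokine genes, 4 were higher and 1, Il34, was lower. Cxcl13, a chemokine for B cells, stood at 1064 and 186 CPM in Pi16-low cells, against 36.2 and 6.81 CPM in Pi16-high cells. Of 14 complement genes, 5 were higher and 1, Cd55, was lower. C3, the central component, stood at 99.2 and 20.3 CPM in Pi16-low cells, against 2.12 and 0.606 CPM in Pi16-high cells. C6, a component of the membrane attack complex, stood at 135 and 62.8 CPM in Pi16-low cells, against 4.07 and 3.48 CPM in Pi16-high cells. Basement membrane genes were higher in 4 of 12 cases and lower in none. Col4a1, a chain of network-forming type IV collagen, stood at 437 and 408 CPM in Pi16-low cells, against 76.6 and 79.7 CPM in Pi16-high cells. The small proteoglycan Bgn, biglycan, stood at 776 and 660 CPM in Pi16-low cells, against 46.8 and 50.4 CPM in Pi16-high cells. Of 18 matricellular genes, 7 were higher and 1, Nell1, was lower. Cilp, a cartilage intermediate layer protein, stood at 499 and 184 CPM in Pi16-low cells, against 13.7 and 2.57 CPM in Pi16-high cells.

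Outside the genes of the gate, few fibrillar collagen and antioxidant genes reached 2-fold, as did few of all genes compared (9.95%). The medians of these lists were 0.09 and 0.13, against -0.07 over all genes. With lists of this size, such counts do not set them apart from all genes. Of 14 fibrillar collagen and processing genes, 1 was higher and none lower. Col1a1, Col1a2 and Col3a1, as genes of the gate, were left out of that count. Among 7 small leucine-rich proteoglycans, 3 were higher and 1 lower. Decorin (Dcn), the small proteoglycan that coats collagen fibrils, stood at 14418 and 14854 CPM in Pi16-low cells, against 16680 and 15078 CPM in Pi16-high cells. None of 19 antioxidant and selenoprotein genes other than Gpx3 reached 2-fold in both libraries. Of 19 immediate early and stress genes, which dissociation of tissue can induce, 3 were higher, namely Fosb, Btg2 and Nr4a1. Among all genes compared, 6.05% were higher and 3.9% lower. Fosb stood at 625 and 1067 CPM in Pi16-low cells, against 156 and 373 CPM in Pi16-high cells.

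**Figure D2:**
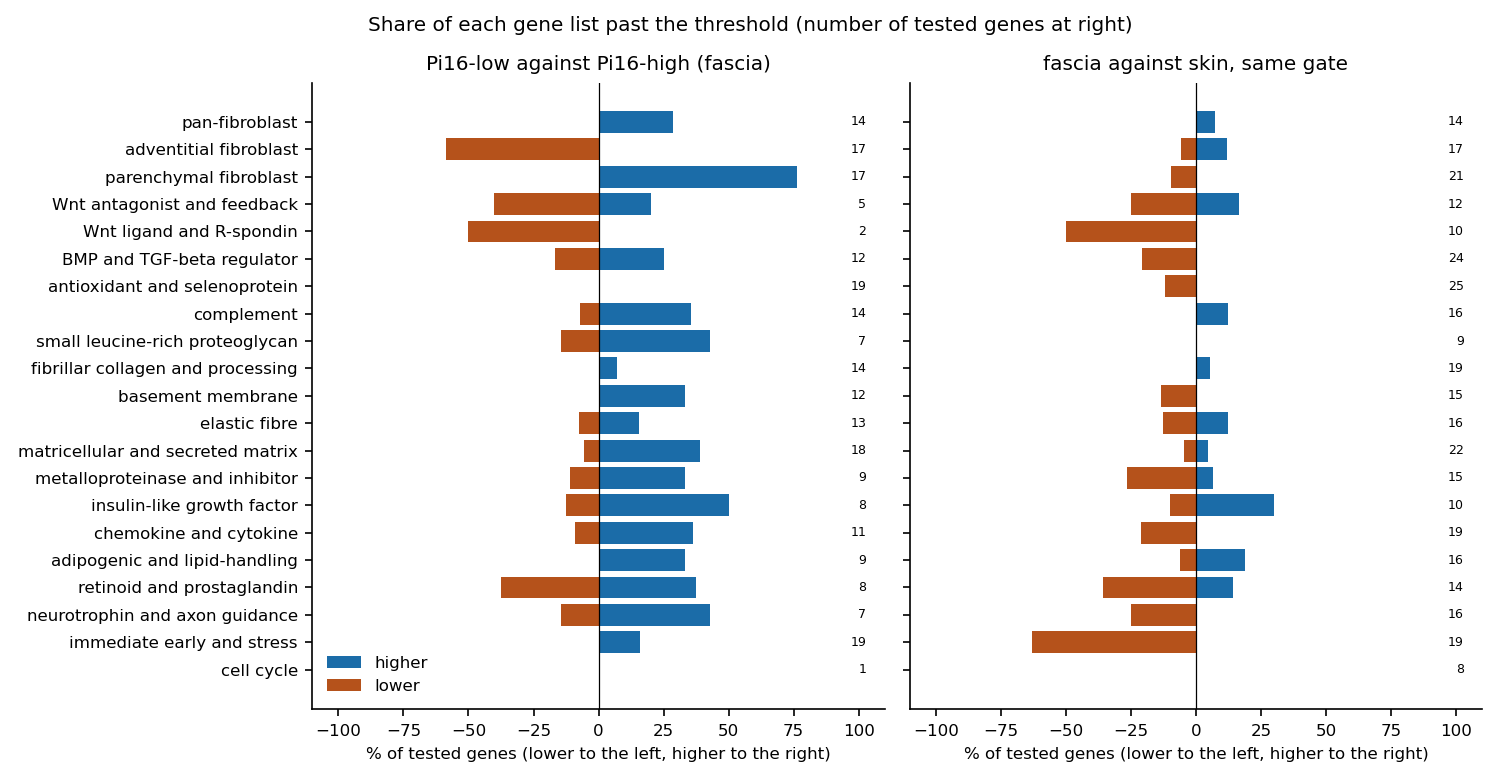
Share of the tested genes of each list that was higher (bars to the right) or lower (bars to the left), for Pi16-low against Pi16-high fascia fibroblasts (at least 2-fold in both libraries, no test) and for fascia against skin in the same gate (edgeR adjusted p under 0.05). The parenchymal and adventitial lists lie on opposite sides of the left panel, with 13 of 17 higher and 10 of 17 lower, and the immediate early list has 12 of 19 lower in the right panel. Over all genes the shares were 6.05% higher and 3.9% lower on the left, and 1.8% higher and 6.33% lower on the right.

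Levels along the range of Pi16 were also read bin by bin. Stmn2 stood at 2136, 1997, 1249, 349 and 13.8 CPM in fascia 1 fibroblasts with 0, 1 to 2, 3 to 9, 10 to 29 and 30 or more Pi16 UMIs. In fascia 2 the corresponding levels were 1149, 782, 285, 5.51 and 0.707 CPM. The largest fold step between neighbouring bins lay above the bin of 10 to 29 UMIs in fascia 1 and below it, at the threshold, in fascia 2. Dpp4 ran in the opposite order, at 5.25, 21.6, 122, 327 and 553 CPM in fascia 1 and at 48.5, 96.3, 283, 461 and 536 CPM in fascia 2. Myoc was highest in the bin of 3 to 9 Pi16 UMIs in fascia 1, at 3494 CPM, against 1202 CPM at 0 UMIs. The summed levels of the bin of 3 to 9 Pi16 UMIs therefore lay between those of the end bins for Stmn2 and Dpp4. In such sums, cells of in-between level and a mixture of cells cannot be told apart. The bins are of raw UMIs, and depth differed between them. Median depth at 10 to 29 and at 30 or more Pi16 UMIs was 10232 and 18156 UMIs in fascia 1 and 16118 and 18028 UMIs in fascia 2.

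**Figure D3:**
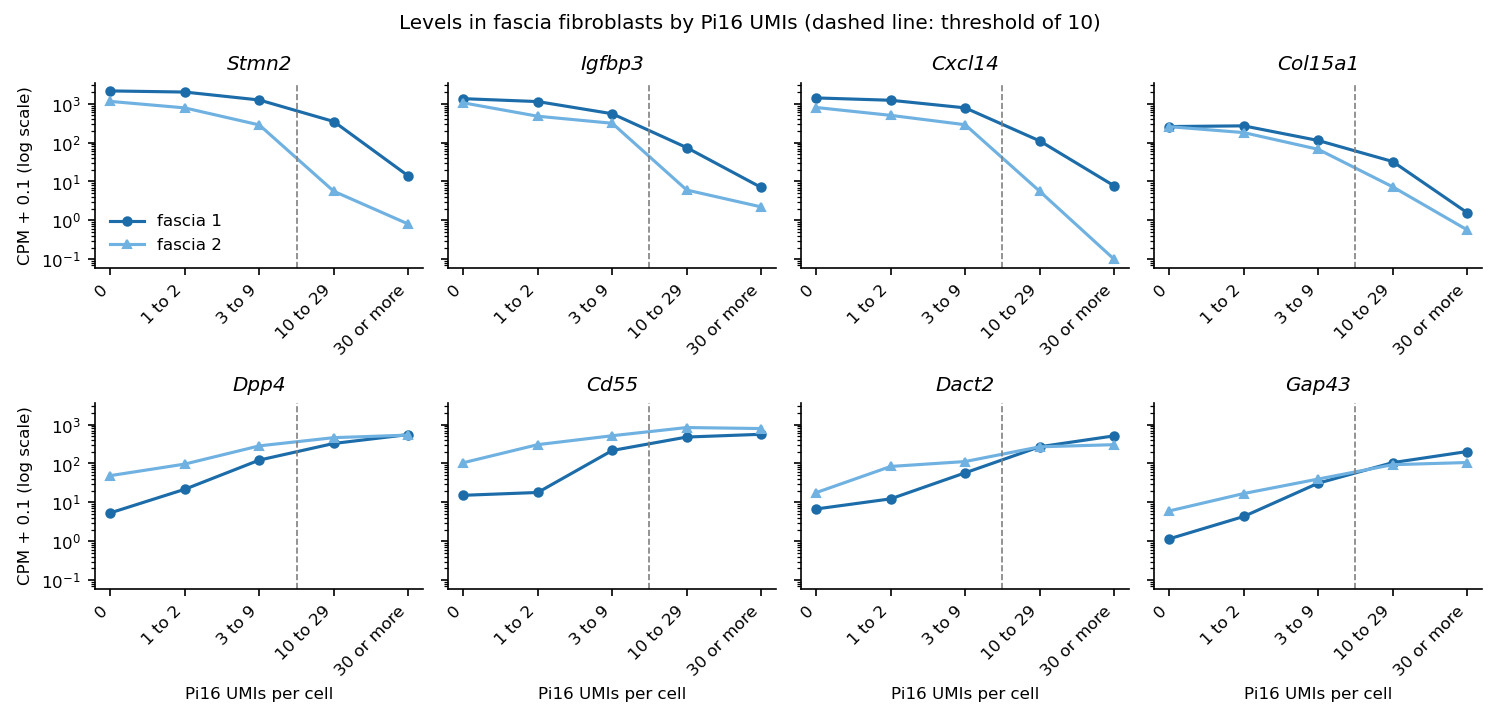
Levels of 8 genes in fascia fibroblasts by the number of Pi16 UMIs per cell, as CPM plus 0.1 on a log axis, 1 line per library, with a dashed line at the threshold of 10. Stmn2, Igfbp3, Cxcl14 and Col15a1 are lower, and Dpp4, Cd55, Dact2 and Gap43 higher, in the last bin than in the first in both libraries, and at 10 to 29 UMIs Stmn2 stands at 349 CPM in fascia 1 and 5.51 CPM in fascia 2.

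The members themselves fell into 6 Leiden sub-clusters, of 203, 158, 128, 102, 55 and 18 cells. They are given by number and leading genes, as a description of the same cells. Sub-cluster 1 was led by Gria4, a glutamate receptor subunit, and Robo1, a receptor for Slit proteins, and held 36.7% of fascia 1 members and 17.8% of fascia 2 members. Gria4 stood there at 292 and 258 CPM in fascia 1 and 2. Sub-cluster 2 was led, apart from haemoglobin genes, by Myoc, at 3985 and 1402 CPM, with Nav3 and Postn, which encodes the matrix protein periostin. Nav3 stood there at 1579 and 1139 CPM and Postn at 831 and 2700 CPM. Both of these genes were higher in sub-cluster 5, Nav3 at 1934 and 2225 CPM and Postn at 2275 and 2783 CPM. Sub-cluster 3 was led by Ccn2, a matricellular growth regulator, at 445 and 272 CPM, with Serpine2, a secreted protease inhibitor, at 577 and 250 CPM. Sub-cluster 4 was led by Zdhhc14, Thbd, which encodes thrombomodulin, and Inmt, with the secreted phospholipase Pla2g2a at 1289 and 2304 CPM.

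Sub-clusters 5 and 6 departed from the label. Sub-cluster 5 held 13 cells of fascia 1 (2.89%) and 42 cells of fascia 2 (19.6%), with a median of 5 Pi16 UMIs, against 0 or 1 in the other 5. Its leading genes included Daglb, at 1258 and 1246 CPM in fascia 1 and 2, and Cd55, at 1201.5 and 917 CPM. Both Daglb and Cd55 were lower in Pi16-low than in Pi16-high cells overall. Stmn2 stood there at 92.4 and 0 CPM and Spon2 at 35.5 and 17.2 CPM, the order of the Pi16-high levels, while Gpx3, at 1009.5 and 856 CPM, was the highest of the 4 genes of the choice there. In fascia 2, Dpp4, Pcsk6 and Bmp7 stood at 465, 303 and 159 CPM in sub-cluster 5. In the other 5 they stood at no more than 118, 75.2 and 43.0 CPM. The fascia 2 levels of such genes given above for Pi16-low cells include sub-cluster 5, and its part in them was not tested. Sub-cluster 6 was led by Fabp4 and by the contractile genes Tagln and Acta2, and 11 of its 18 cells were marked as doublets. Fabp4 stood there at 3318 and 3268 CPM, against 6.69 to 38.4 CPM in the other 5 sub-clusters.

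**Figure D4:**
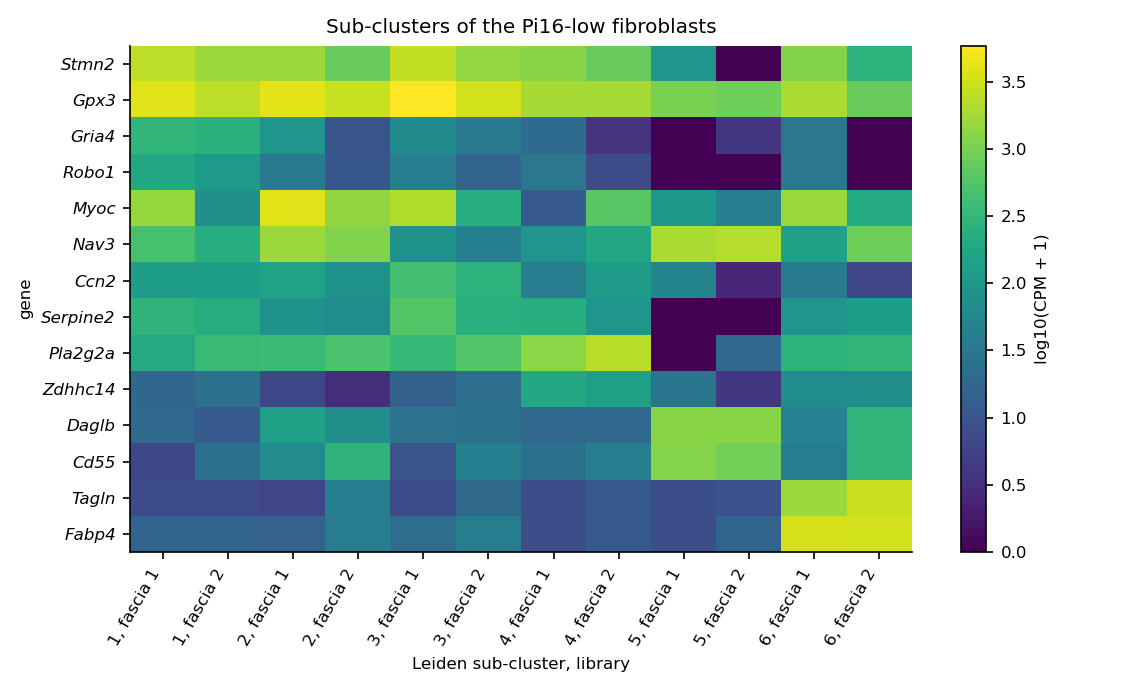
Levels of 14 genes in the 6 Leiden sub-clusters of the Pi16-low fibroblasts, each split by fascia library, as log10 of CPM plus 1. Sub-cluster 5 shows Daglb at 1258 and 1246 CPM with little Stmn2, and sub-cluster 6 stands apart by Fabp4 at 3318 and 3268 CPM and by Tagln.

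Fascia and skin were compared over cells of the same gate, a contrast that took no part in the choice. The gated cells held 6111328 and 3454392 UMIs in fascia 1 and 2 and 3507886 and 2214014 UMIs in skin 1 and 2. The skin cells met the gate differently. Gpx3 supplied 94.7% and 69.9% of their marker UMIs, 70.2% and 43.3% of them held only 1 of the 4 marker genes, and no skin 1 cell and 1.90% of skin 2 cells held all 4. The comparison is therefore between cells that passed the same gate and not between cells shown to be of the same type. With edgeR's quasi-likelihood test and Benjamini-Hochberg adjustment, 927 of 11400 genes (8.13%) were called at an adjusted p under 0.05. Of these, 205 were higher (1.8%) and 722 lower (6.33%) in fascia, and 3282 had an unadjusted p under 0.05. The count was 75 without fascia 1, 257 without fascia 2, 978 without skin 1 and 2461 without skin 2, and DESeq2 called 1430.

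Of the 6 markers, 1 of the 2 that took no part in the gate was called. Svep1 stood at 705 and 417 CPM in fascia and 122 and 170 CPM in skin cells of the gate. It was higher by 1.62 on the log2 scale (SE 0.33, adjusted p = 0.0453 by edgeR). Stmn2 stood at 1994 and 812 CPM in fascia, against 76.1 and 492 CPM in skin. The groups did not overlap, but its log2 difference of 2.06 (SE 0.86) did not pass (adjusted p = 0.188 by edgeR). For the genes of the gate the values are a description, with Sfrp2 at 958 and 111 CPM in fascia, against 1.43 and 23.0 CPM in skin, and Spon2 at 442 and 312 CPM in fascia, against 22.8 and 70.0 CPM in skin.

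Insulin-like growth factor genes were called in both directions. Of 10 tested, 3 were higher and 1 was lower in fascia, with a list median of 1.10 against 0.01 over all genes. The shares called over all genes were 1.8% higher and 6.33% lower. Igfbp2 stood at 0.327 and 0.289 CPM in fascia, which is 3 UMIs, against 3813 and 1362 CPM in skin, and was called lower (adjusted p = 0.011 by edgeR). The ratio of skin to fascia was 9135 by counts, with a counting interval of 3125 to 44299. Cells with at least 3 Igfbp2 UMIs made up 78.4% and 33.8% of the gated skin cells and none of the fascia cells. Igfbp5 stood at 3182 and 3775 CPM in fascia, against 320 and 248 CPM in skin, a log2 difference of 3.26 (SE 0.37, adjusted p = 0.0167 by edgeR). Igfbp4 stood at 565 and 202 CPM in fascia, against 31.4 and 42.0 CPM in skin (log2 3.06, SE 0.53, adjusted p = 0.032 by edgeR). Igf1 stood at 517 and 381 CPM in fascia, against 73.0 and 142 CPM in skin (log2 1.77, SE 0.33, adjusted p = 0.0385 by edgeR). With the skin cells of at least 3 Igfbp2 UMIs left out, none of the 10 genes was called higher and 1 was called lower, and without fascia 1 the count was the same.

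The other genes with the largest increases in fascia are given next. Snap25, a protein of synaptic vesicle release, stood at 32.7 and 46.0 CPM in fascia, against 0 and 0.903 CPM in skin, 107-fold higher by counts with a counting interval of 29.5 to 890 (adjusted p = 0.0162 by edgeR). Mmd2, a membrane protein of the progestin receptor family, stood at 17.7 and 22.6 CPM in fascia and had no UMI in skin, where a floor of 3 counts over both libraries made it at least 37.1-fold higher in fascia. C6 stood at 135 and 62.8 CPM in fascia, against 0.285 and 4.52 CPM in skin (log2 5.26, SE 0.81, adjusted p = 0.0265 by edgeR). S1pr3, a receptor for sphingosine 1-phosphate, stood at 64.3 and 42.8 CPM in fascia, against 1.14 and 2.71 CPM in skin (log2 4.54, SE 0.42, adjusted p = 0.0123 by edgeR). The transcription factor genes Nr2f1 and Dmrt2 and the developmental gene Mab21l1, together with Hs3st5, a heparan sulfate sulfotransferase, and Cavin2, a protein of caveolae, were called higher by log2 differences of 4.77 to 5.95. Of these, Hs3st5 was lower in Pi16-low than in Pi16-high cells, with log2 ratios of -2.82 and -1.30.

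Daglb, which encodes a lipase that makes the endocannabinoid 2-arachidonoylglycerol, stood at 86.2 and 275 CPM in fascia, against 3.71 and 5.42 CPM in skin. It was higher by 5.00 on the log2 scale (SE 0.71, adjusted p = 0.0232 by edgeR). Within the fascia members it stood at 1258 and 1246 CPM in sub-cluster 5 and between 11.4 and 296 CPM in the other 5, and the part of that sub-cluster in the result was not tested. Dact2, higher by 5.09 (SE 0.94), was likewise lower in Pi16-low than in Pi16-high cells. With both fascia libraries pooled, Dact2 stood at 231 CPM in sub-cluster 5 and 16.2 CPM in the other members. The part of that sub-cluster was again not tested. Hbb-b1, a haemoglobin chain, stood first by size of change, at 1083 and 75.6 CPM in fascia, against 0.855 and 0.452 CPM in skin. In fascia 1, 5 of 450 members held 90.1% of 12277 haemoglobin UMIs, and haemoglobin markers summed to 841 and 1921 CPM in fascia leukocytes. The part of these cells was not tested.

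The genes lower in fascia included markers of skin epithelium. Beside 6.33% of all genes, all 9 keratinocyte markers tested were called lower in fascia. They summed to 15.2 and 22.0 CPM in the fascia members, where Krt5, Epcam and Tp63 were at 0 in both libraries, and to 1929 and 9482 CPM in the gated skin cells. In the skin leukocyte gate the same markers summed to 3474 and 14302 CPM, above the gated fibroblasts, and in the skin keratinocyte gate to 25687 and 37143 CPM. Serpinb2, a protease inhibitor, had no UMI in fascia and stood at 242 and 358 CPM in skin, at least 916-fold lower in fascia. It stood in gated skin cells at 0.39 of its highest level in another skin gate, and Stfa2, Krt1, Krt79, Tfap2c, Bcl11b and Grhl3 at 0.208 to 0.554. With doublets left out, none of the 9 keratinocyte markers was called, with a median of -11.59, and without fascia 1, 4 were called. The part of keratinocyte RNA in these genes was not tested.

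Other genes with the largest decreases in fascia were higher in the gated skin cells than in the other skin gates. Mmp3, the matrix metalloproteinase stromelysin 1, stood at 0.982 and 0 CPM in fascia, against 737 and 235 CPM in skin (log2 -10.00, SE 1.16, adjusted p = 0.0175 by edgeR). Cdh4, R-cadherin, stood at 0.655 and 0.289 CPM in fascia, against 244 and 149 CPM in skin (log2 -8.86, SE 0.60, adjusted p = 0.00921 by edgeR). Hs6st3, a heparan sulfate sulfotransferase, stood at 0.327 and 0.289 CPM in fascia, against 187 and 116 CPM in skin, and Tmem132c at 0 and 0.289 CPM in fascia, against 44.8 and 46.1 CPM in skin. Thbs1, thrombospondin 1, stood at 10.1 and 21.7 CPM in fascia, against 1571 and 367 CPM in skin (log2 -6.37, SE 1.01, adjusted p = 0.0283 by edgeR).

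**Figure D5:**
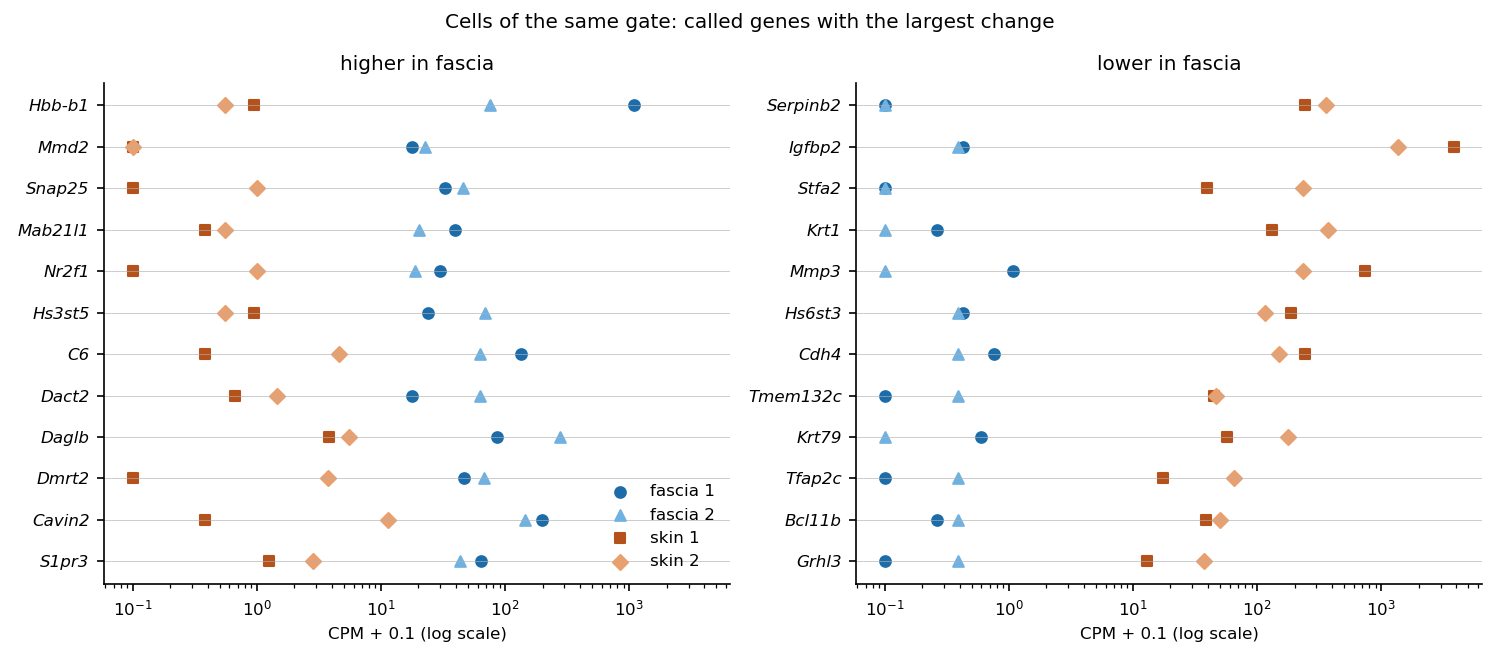
The 12 genes called higher and the 12 called lower in fascia with the largest change in cells of the same gate, as CPM plus 0.1 on a log axis, 1 point per library. The fascia points (circles, triangles) and skin points (squares, diamonds) do not overlap for any gene, which the rule for naming required, and Hbb-b1 spans 75.6 to 1083 CPM between the fascia libraries.

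Immediate early and stress genes were lower in fascia. Of 19 tested, 12 were called lower and none higher, with a median of -2.35 against 0.01 over all genes. By count, 6.33% of all genes tested were called lower and 1.8% higher. Atf3, a stress-induced transcription factor, stood at 142 and 279 CPM in fascia, against 1531 and 1599 CPM in skin (log2 -3.23, SE 0.44, adjusted p = 0.0217 by edgeR). Hspb1, a small heat shock protein, stood at 276 and 325 CPM in fascia, against 4283 and 1882 CPM in skin (log2 -3.75, SE 0.58, adjusted p = 0.0266 by edgeR). Fos stood at 1045 and 828 CPM in fascia, against 2562 and 5397 CPM in skin. The median stayed between -2.39 and -1.93 in every alternative fit, but no gene of the list was called without fascia 1, 1 without fascia 2, 6 with doublets left out and 7 with the skin cells of at least 3 Igfbp2 UMIs left out.

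The Wnt, BMP and TGF-beta lists were tested next, beside 1.8% called higher and 6.33% called lower over all genes. Of 10 Wnt ligand and R-spondin genes, 5 were called lower and none higher (median -2.03). Rspo1, an R-spondin that enhances Wnt signalling, stood at 19 and 27.2 CPM in fascia, against 131 and 92.1 CPM in skin (log2 -2.65, SE 0.36, adjusted p = 0.0222 by edgeR). Wnt4, Wnt5b, Wnt6 and Wnt16 were called lower at levels of at most 5.21 CPM in fascia and 24.4 CPM in skin. No Wnt gene of this list was called without fascia 1, and 2 of the list were called without fascia 2. Of 12 Wnt antagonist and feedback genes, Sfrp1 and Dact2 were called higher, and Apcdd1, Axin2 and Kremen1 lower. Sfrp1 stood at 940 and 698 CPM in fascia, against 131 and 221 CPM in skin (log2 1.91, SE 0.31, adjusted p = 0.0288 by edgeR). Apcdd1, a membrane-bound Wnt inhibitor, stood at 50.9 and 61.7 CPM in fascia, against 452 and 253 CPM in skin (log2 -3.03, SE 0.44, adjusted p = 0.0246 by edgeR). Of 24 BMP and TGF-beta regulators, 5 were called lower and none higher, among them Bmp4 at 76.7 and 54.7 CPM in fascia, against 206 and 292 CPM in skin, and 0 were called without fascia 1 or without fascia 2.

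Most genes of the chemokine and the lipid-handling lists were not called. Over all genes tested, 1.8% were called higher and 6.33% lower. Of 19 chemokine and cytokine genes, 4 were called lower in fascia and none higher. Cxcl1, which attracts neutrophils, stood at 42.4 and 133 CPM in fascia, against 2866 and 3095 CPM in skin (log2 -5.41, SE 0.68, adjusted p = 0.0197 by edgeR). Ccl19, a ligand of Ccr7, stood at 2.13 and 1.16 CPM in fascia, against 305 and 109 CPM in skin (log2 -7.29, SE 0.81, adjusted p = 0.0163 by edgeR). Il6 and Cxcl10 were also called lower. None of the list was called without fascia 1, 6 were called lower without fascia 2, and 8 were called lower and 5 higher without skin 2. Cxcl13, at 1064 and 186 CPM in fascia, against 0 and 14.9 CPM in skin, did not pass (log2 6.26, SE 1.61, adjusted p = 0.0751 by edgeR). Of 16 adipogenic and lipid-handling genes, 3 were called higher and 1 lower. Fabp4, a fatty acid carrier, stood at 158 and 198 CPM in fascia, against 7.70 and 12.2 CPM in skin (log2 3.86, SE 0.28, adjusted p = 0.00921 by edgeR). Its level in the members was 0.0258 of that in the highest other fascia gate and was concentrated in sub-cluster 6, and Cfd and Pparg stood at 0.0256 and 0.0575 of theirs. Their part in the result was not tested.

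Retinoid and metalloproteinase genes were called in both directions, whereas every called mural marker was higher in fascia. The lists below stand beside 1.8% called higher and 6.33% called lower over all genes. Of 14 retinoid and prostaglandin genes, 2 were higher and 5 lower. Rarb, a retinoic acid receptor, stood at 68.7 and 40.2 CPM in fascia, against 3.99 and 3.61 CPM in skin (log2 3.47, SE 0.39, adjusted p = 0.0163 by edgeR), and Rbp4, a retinol carrier, stood at 13.9 and 35.3 CPM in fascia, against 415 and 285 CPM in skin (log2 -4.21, SE 0.59, adjusted p = 0.0225 by edgeR). Of 15 metalloproteinase and inhibitor genes, 1 was higher and 4 lower. Of 10 mural markers, 4 were called higher in fascia, Rgs5, Acta2, Kcnj8 and Des, with a list sum of 402 and 548 CPM in fascia, against 65.3 and 118 CPM in skin. Rgs5, Acta2 and Des stood in the members at 0.022 to 0.0274 of their level in the highest other fascia gate, and 1 mural marker was called with doublets left out, none without fascia 1 and 7 without skin 2. The part of mural RNA or of sub-cluster 6 was not tested. Of the antioxidant list without Gpx3, 3 of 25 were lower, Sod2, Txnrd1 and Mgst1, and none was higher. No small leucine-rich proteoglycan of 9 tested was called.

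The rule for naming genes took most of its 77 tested genes from those already called between tissues, so that 73 of them were called follows from the choice. Of these 73, 15 stayed called whichever library was left out. These 15 were Anxa3, Bcl11b, Cdh4, Daglb, Fabp4, Hs3st5, Hs6st3, Igfbp2, Krt1, Krt79, S1pr3, Sema3e, Serpinb2, Snap25 and Tmem132c. Without fascia 1, 18 were called, without fascia 2, 37, without skin 1, 64, and without skin 2, 72.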

How the data were processed

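UMI counts per gene and barcode of 4 droplet libraries were used as deposited. Per the submitters' processing notes, the authors ran Cell Ranger 6.0.1 with STAR and named the builds mRatBN7.2 and GRCh38.p13, while the file headers give Cell Ranger 7.0.0. Whether intronic reads were counted is not given in the sources used here. Of 30560 genes, 7162 carry only an identifier and none of these is named. The members and the 21 pathway and 16 cell type lists were chosen with earlier results of these data known.

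Barcodes were kept with 500 genes or more and mitochondrial UMIs of 20% or less. Doublets were left in and marked with Scrublet, or, in skin, by the highest scores at 0.8% per 1000 cells (Scanpy 1.11.5). Counts were summed per library over gated cells and compared between tissues with edgeR 4.0.16 (TMM, filterByExpr, quasi-likelihood, Benjamini-Hochberg over all genes tested, R 4.3.3), over 2 fascia and 2 skin libraries, with the 11 genes of the gate left out of counts. SE values came from the test statistic. DESeq2 1.42.0 was an alternative. In simulated counts for this comparison over 11409 genes, 87% of 200 genes changed 4-fold were called and 1.5% of those changed 2-fold. Every simulated gene was given the same dispersion, so recovery of genes with a larger or smaller spread between libraries was not measured. A population at 0 was set to a floor of 3 counts. Binomial 95% intervals of shares are exact and hold the counting error alone. Thinning drew 3000 UMIs per cell.

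The endothelial gate required at least 2 UMIs of Pecam1 and none of Pdgfra or Ptprc. The mural gate required at least 10 UMIs of Rgs5, Acta2 and Myh11 and none of Pdgfra, Pecam1 or Ptprc. The keratinocyte gate required at least 20 UMIs of Krt5 and none of Pdgfra. Pi16-low cells were clustered at Leiden resolution 0.5 (2000 variable genes, 30 components, 15 neighbours, leidenalg 0.10.2). Named tissue genes were, in either direction, the 12 with the widest change among those called. They needed at least 20 CPM, no overlap between tissues, and a level of at least 0.2 of the highest other gate. Added were the 12 in each direction with the largest smaller ratio to Pi16-high cells, the markers, the genes of the gate, Cd34, Dpp4, Cd55, Igfbp2 and up to 4 members of each list. Further list members are named with their values. A few genes that the rule named are not reported here.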

Additional observations from a re-analysis of the deposited data

How the results depend on the processing

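The number of genes called between fascia and skin depended on the libraries and cells. It ranged from 75 to 2461 when a library was left out, a fit that assumes the lone library to vary like the other tissue's, and was 1430 with DESeq2, 338 with doublets left out, 3118 with no filter on low counts and 274 with skin cells of at least 3 Igfbp2 UMIs left out, against 927. In skin, 12.5% and 2.86% of gated cells were marked as doublets. With the replicate number as a block it was 988, 794 of them shared. The labels do not say that equal numbers pair the libraries, and the deviations of same-numbered libraries correlated at -0.0873 over 11409 genes. Leaving out genes under 0.2 of the highest other gate, chosen after seeing the data, gave 666. The genes at least 2-fold different from Pi16-high cells numbered 367 to 504 under other settings, 377 and 721 with 1 library. A second added setting, Pi16-high cells with a marker sum of at least 5, gave 372. Sub-clusters numbered 6 at resolution 0.3 and 12 at resolution 1.0.

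Reversed values were the share of fibroblasts on thinned cells, at 0.589 points against -31.4, Cd55 between tissues without fascia replicate 2, at -0.34 against 1.32, and Cd34 without skin replicate 1, at 0.43 against -0.39. Neither was called in the fits that reversed them (edgeR), but Cd55 was called with no filter on low counts. With a library left out, Cd34 ranged from -0.90 to 0.43 and Cd55 from -0.34 to 2.08. The share differences ranged from 1.02 to 4.57 points of kept cells and from -42.0 to -20.8 points of fibroblasts when a library was left out. The cause of these changes was not tested. Of the 77 named genes tested, 25 lost their call with doublets left out and 48 kept their result. With skin cells of at least 3 Igfbp2 UMIs left out, 33 lost their call and 41 kept their result. The rest had no value in those fits. Doublets in skin were marked by score rank only. Simulated 2-fold changes were mostly missed, so differences of that size may be missed in this comparison of 2 against 2 libraries.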
